A study of Mus musculus with 2 samples.

Results

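The miRNAs described here are 9 mature miRNAs of the Dlk1-Dio3 imprinted region on mouse chromosome 12, out of 610 miRNA features on the arrays. They were taken by accession from a list based on their position in the region, which was drawn up with earlier results of these data known. The rule itself uses no measured value. In chromosome order they are miR-127-3p (miRBase accession MIMAT0000139), miR-136-5p (MIMAT0000148), miR-379-5p (MIMAT0000743), miR-376a-3p (MIMAT0000740), miR-381-3p (MIMAT0000746), miR-382-5p (MIMAT0000747), miR-134-5p (MIMAT0000146), miR-154-5p (MIMAT0000164) and miR-377-3p (MIMAT0000741). The names came with the list, since the deposited table gives accessions without names. Liver RNA was profiled on 2 arrays. The liver-null array held RNA of 45-day-old male Hnf4aΔH mice, which lack Hnf4a in the liver. The floxed control array held RNA of 45-day-old male Hnf4af/f mice. Both are of mixed 129SV and C57BL/6 background. The sources used here do not give the Cre driver or the number of animals behind each array. Each genotype has 1 array, so every value below is a single measurement with no replicate error, and no test or p-value is given.

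HNF4a is a nuclear receptor that maintains much of the gene expression programme of the hepatocyte. The Dlk1-Dio3 region is an imprinted domain. The mRNAs of Dlk1, Rtl1 and Dio3 come from the paternal chromosome, and the long noncoding RNAs Meg3, Rian and Mirg come from the maternal one. The miRNAs of the region are processed from maternal noncoding transcripts. They are known for high levels in the embryo, the placenta and the adult brain and for low levels in most adult tissues, liver included.

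The mature sequences are shown because they set which messages each miRNA can pair with and how far the 9 can be told apart by hybridization. They are RefSeq sequences on the GRCm38.p6 build, written 5′ to 3′ and in chromosome order, with the seed (bases 2 to 8) in capitals. All 9 members were found there by name.
miR-127-3p: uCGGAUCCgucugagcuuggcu
miR-136-5p: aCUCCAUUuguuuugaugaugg
miR-379-5p: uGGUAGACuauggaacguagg
miR-376a-3p: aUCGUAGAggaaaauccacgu
miR-381-3p: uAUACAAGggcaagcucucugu
miR-382-5p: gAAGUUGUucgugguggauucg
miR-134-5p: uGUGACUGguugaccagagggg
miR-154-5p: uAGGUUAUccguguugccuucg
miR-377-3p: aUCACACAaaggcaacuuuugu

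The 9 miRNAs carry 9 different seeds, so none can be grouped with another by its seed. The closest pair among them is 7 edits apart, an edit being a substitution, an insertion or a deletion of 1 base. The G+C share ranged from 36.4% in miR-136-5p and miR-377-3p to 59.1% in miR-127-3p and miR-134-5p. Signal on both arrays was thus given for 1 member at each end of this range, miR-377-3p and miR-134-5p, and missing on both for the other member at each end. Their median G+C share was 47.6%, against 50.0% over the 114 mature entries that RefSeq places between Dlk1 and Dio3.

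Some members have near relatives within the same region. The closest are shown because a probe may pair with a close relative, which was not tested here. miR-376b-3p lies 3 edits from miR-376a-3p, and miR-300-3p lies 3 edits from miR-381-3p. In both cases the seeds differ at 1 base. For each member only the closest mature miRNAs were listed, so further relatives, also of miR-376a-3p and miR-381-3p, are not covered. Closest mature miRNAs at 5 or 6 edits are not shown. They are miR-487b-5p and miR-494-5p, 5 edits from miR-154-5p, miR-3071-5p, 6 from miR-136-5p, and miR-5619-5p, 6 from miR-377-3p. miR-1193-5p, 7 edits from miR-379-5p, is shown because it has the same seed. It is the only other mouse miRNA of the RefSeq table that shares a seed with any member.
miR-376b-3p: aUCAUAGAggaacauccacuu
miR-300-3p: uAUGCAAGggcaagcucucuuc
miR-1193-5p: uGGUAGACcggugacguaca

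All 9 lie on the plus strand, over 147.7 kb, and they fall into a pair and a group of 7. The pair lies within the span of Rtl1, a retrotransposon-derived gene needed for the placenta. miR-127-3p is at chr12:109592888-109592909 and miR-136-5p at chr12:109595331-109595352. Both are known to be processed from a maternal transcript antisense to Rtl1 and to direct cleavage of the Rtl1 message. The gap from miR-136-5p to miR-379-5p is 113.7 kb. The group of 7 then covers 31.5 kb, with miR-379-5p at chr12:109709065-109709085, miR-376a-3p at chr12:109723824-109723844 and miR-381-3p at chr12:109726870-109726891. miR-382-5p at chr12:109733781-109733802 and miR-134-5p at chr12:109734145-109734166 are 0.34 kb apart. miR-134-5p ends 0.82 kb before the annotated start of Mirg, and miR-154-5p at chr12:109738438-109738459 and miR-377-3p at chr12:109740553-109740574 lie within Mirg. The tables used give gene spans without exons, so exon or intron is not stated.

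Most of the Dlk1-Dio3 miRNAs had no value on the liver-null array, and 5 of the 9 had none on either array. The liver-null array gave a value for 2 of the 9, and 55.7% of all 610 features had a value there. The floxed control array gave one for 4 of the 9, and 49.0% of all features had a value on it. Both arrays gave a value for miR-134-5p and miR-377-3p, which is 2 of 9, beside 42.3% of all features. The floxed control array alone gave one for miR-376a-3p and miR-154-5p, which is 2 of 9, beside 6.72% of all features. No member (0) was given a value by the liver-null array alone, as 13.4% of all features were. The other 5 members, miR-127-3p, miR-136-5p, miR-379-5p, miR-381-3p and miR-382-5p, had no value on either array, beside 37.5% of all features. The sources used here do not say what a missing value means, so these 5 cannot be called absent, and no bound can be set on them.

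**Figure D1:**
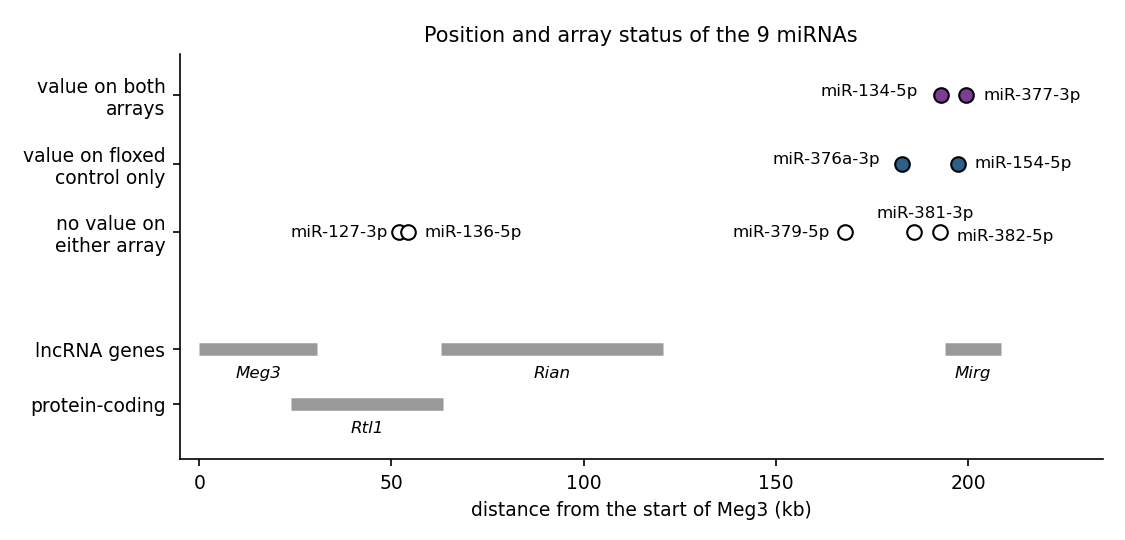
The horizontal axis is the distance in kb from the start of Meg3, and the rows give the array status of each miRNA above the spans of 4 genes. Filled points are miRNAs with a value on both arrays or on the floxed control array alone, and open points have no value on either. The pair within Rtl1 has no value on either array, and all 4 members with a value lie from 182.8 to 199.6 kb. Of all features, 37.5% have no value on either array, and a link with position was not tested.

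The status of the members was set beside their position. Neither miRNA of the Rtl1 pair had a value on either array, as was so for 37.5% of all features. Of the group of 7, 4 had a value in the floxed control liver, beside 49.0% of all features. Both members within Mirg were among these 4. A link between status and position was not tested. Between miR-376a-3p and miR-134-5p, which had values, lie miR-381-3p and miR-382-5p, which had none. Neighbours in the group thus differed in status, also miR-382-5p and miR-134-5p at 0.34 kb. Values of different probes are not compared as levels, since probes differ in how bright they are for a given amount of miRNA.

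miR-377-3p, known for a part in fibronectin production by kidney mesangial cells, had the larger difference of the 2 members with a value on both arrays. Its intensity was 1.34 in the liver-null liver, against 3.99 in the floxed control liver, a 2.99-fold lower value. On the log2(intensity + 1) scale, which understates the change of dim features, the level was 1.22 in the liver-null and 2.32 in the floxed control liver. The difference, liver-null minus floxed control, was -1.10. The liver-null value was 1.31 times the lowest value given on its array, 1.02, and the floxed control value was 2.74 times the lowest on its own, 1.45. The liver-null value therefore stood near the dim end of its array, below the lowest value that the other array reported for any feature.

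miR-134-5p, known in rat hippocampal neurons for limiting dendritic spine size through Limk1, had an intensity of 2.91 in the liver-null liver and 3.97 in the floxed control liver. The ratio of liver-null to floxed control was 0.73, and the log2(intensity + 1) difference was -0.34. Both arrays measured 258 features, called shared here, and their differences ran from -0.33 at the 25th percentile to 0.36 at the 75th, with a median of -0.06. miR-134-5p lay just below this range. The 129 shared features whose mean level was under the median are called dimmer, and both members are among them. For these the 25th and 75th percentiles were -0.35 and 0.16, and miR-134-5p lay between them.

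**Figure D2:**
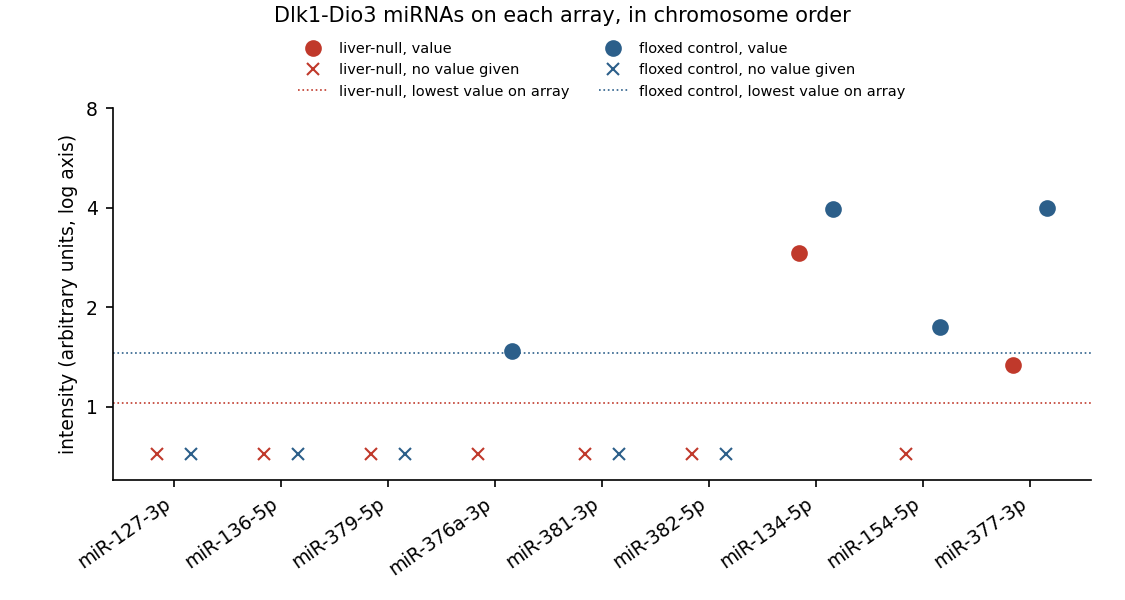
The intensity of each of the 9 miRNAs is shown on a log axis, in chromosome order, with the liver-null array left of the floxed control array. Crosses mark miRNAs with no value and have no height, and dotted lines mark the lowest value given on each array. miR-134-5p and miR-377-3p have lower points for liver-null, at 2.91 and 1.34, than for floxed control, at 3.97 and 3.99.

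The 2 members with a value in the floxed control liver alone were near the lowest value of that array. miR-376a-3p, of a family whose transcripts are edited from adenosine to inosine in mouse brain, had no value in the liver-null liver and an intensity of 1.47 in the floxed control liver. This was 1.01 times the lowest value on the floxed control array, and 3 features there were dimmer. miR-154-5p had no value in the liver-null liver and 1.74 in the floxed control liver, where 34 features were dimmer. The 41 features that the floxed control array alone gave a value had a median intensity of 1.76 (range 1.46 to 4.26), so both members were dimmer than this median. A missing liver-null value was common at such levels, although the liver-null array gave values down to 1.02. Why the 2 members have none there was not tested. Of the 75 dimmest features of the floxed control array, from 1.45 to 2.18, 34 (45.3%) had no liver-null value. Of the next 75, up to 4.33, 7 (9.33%) had none.

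Every member with a value lay below the median signal of its array, which describes the signal and not the abundance of the miRNA. In the liver-null liver miR-134-5p ranked 176 and miR-377-3p ranked 295 of 340 features, counted from the brightest. In the floxed control liver miR-377-3p ranked 156 and miR-134-5p ranked 158, with miR-154-5p at 265 and miR-376a-3p at 296. The array medians were 3.20 for liver-null and 4.33 for floxed control. Together the 2 members with a liver-null value held 0.015% of the total intensity of the liver-null array. The 4 with a floxed control value held 0.0387% of that of the floxed control array, so these shares cover different sets of members. Summed over the 2 members with both values, the intensity was 4.25 in the liver-null and 7.96 in the floxed control liver.

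**Figure D3:**
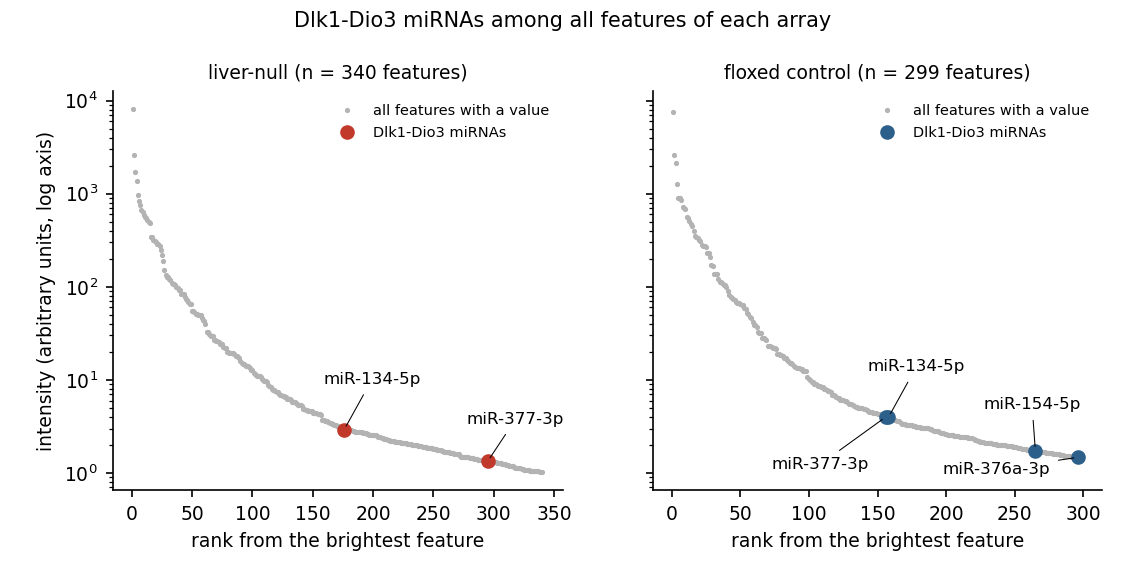
Each panel ranks all features with a value from the brightest, on the horizontal axis, against intensity on a log axis, with the liver-null array on the left and the floxed control array on the right. Grey points are all features and coloured points are Dlk1-Dio3 miRNAs. All coloured points lie below the array's median, with 2 at ranks 176 and 295 for liver-null and 4 between ranks 156 and 296 for floxed control.

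Counted at 2-fold (a log2 difference of 1), 1 of the 2 members with both values, miR-377-3p, was lower in Hnf4aΔH liver, and none (0) was higher. Past this threshold lay 5.43% of all 258 shared features on the lower side and 6.59% on the higher side. Among the 129 dimmer shared features these shares were 2.33% and 3.1%, or 3 lower and 4 higher. miR-377-3p was 1 of these 3, and over all shared features 12 had a lower difference. The median difference of the 2 members was -0.72, beside -0.06 over all shared features and -0.15 over the 129 dimmer ones. With 2 members this describes a pair and not a group.

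**Figure D4:**
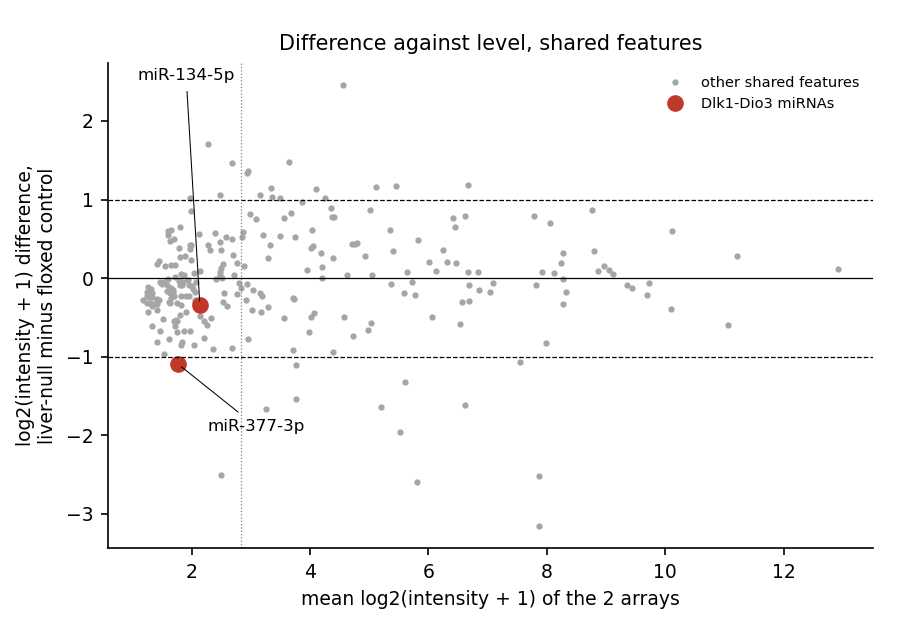
The vertical axis is the log2(intensity + 1) difference, liver-null minus floxed control, and the horizontal axis is the mean log2(intensity + 1) of both arrays, for the 258 shared features. Dashed lines mark 2-fold and the dotted line parts the dimmer from the brighter features. miR-377-3p at -1.10 lies just past the lower dashed line and miR-134-5p at -0.34 lies among the other dim features.

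The difference of miR-377-3p stood close to the 2-fold line and crossed it under some settings. It was -1.25 with each array centred on its median and -1.58 with no pseudocount. It came to -0.95 when the trend of the difference with level was removed by loess, and to -0.21 with a pseudocount of 16. How the authors normalized the arrays is not stated. Over the shared features the liver-null array had a median log2 level 0.15 above that of the floxed control array. Relative to this shift miR-134-5p was at -0.50. The median of the differences themselves was negative, at -0.06 over all shared features and -0.15 over the 129 dimmer ones, which include both members. With the loess trend removed, miR-134-5p was at -0.28. The sign of both members' differences was negative under all 6 alternative settings, though a change of pseudocount cannot turn a sign. Both livers are bulk tissue, so fewer cells that make an miRNA and less of it per cell cannot be told apart.

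**Figure D5:**
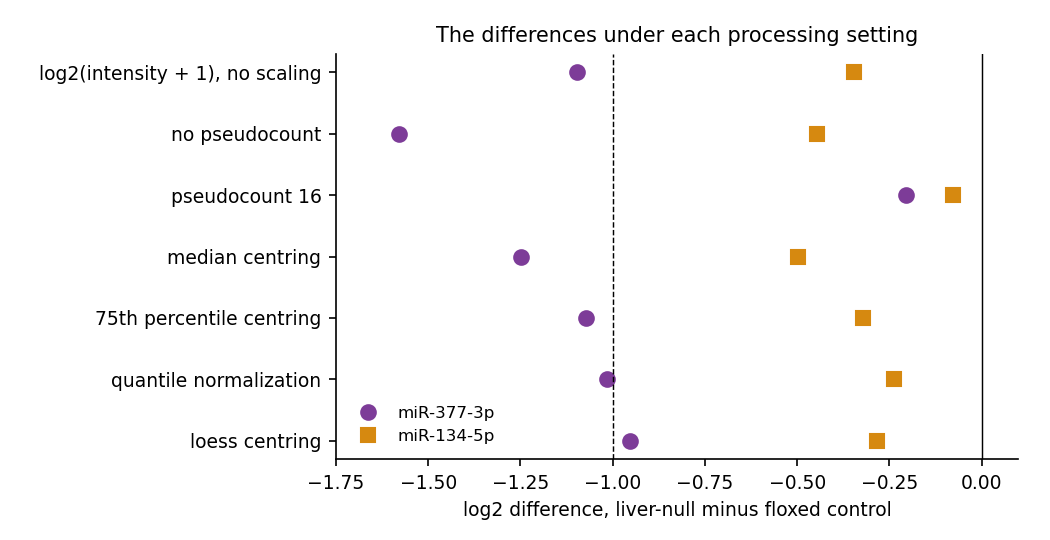
Each row is a processing setting, and the horizontal axis is the log2 difference, liver-null minus floxed control, for miR-377-3p (circles) and miR-134-5p (squares). The dashed line marks a 2-fold lower value. miR-377-3p runs from -1.58 to -0.21 and miR-134-5p from -0.50 to -0.08.

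Of the 5 members without a value on either array 3 belong to the same stretch as the measured ones. They include miR-379-5p, the first miRNA of the group of 7, which is known in mouse liver as a target of glucocorticoid signalling that affects blood lipids. Its level in these livers cannot be read from the arrays, nor can those of miR-381-3p and miR-382-5p. Other miRNAs of the region, and the hepatocyte, endothelial, leukocyte, erythroid and stellate cell miRNAs that would check the tissue, were not analysed here, since no table at hand pairs their accessions with names. Their part in the differences above was not tested.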

How the data were processed

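Total RNA of liver was labelled with Hy5, 1 channel per sample, per the labels' protocols. The authors deposited processed intensity values on a linear scale. The sources used here do not give the scanner software, the background correction, the normalization or the meaning of missing values. Missing values were not replaced. Intensities were converted to log2(intensity + 1), and differences are liver-null minus floxed control. The 9 members and the settings were chosen with earlier results of these data known. All 9 are named, by rule. No miRNA is named for a like pattern, since 2 arrays give none. Lists of other miRNAs, by region or by cell type, could not be applied: 0 accessions matched the RefSeq miRNA table. Alternatives were no pseudocount or one of 16, centring on the median or 75th percentile, quantile normalization, loess (span 0.4), a common lowest value, and thresholds of 1.5-fold and 4-fold. The counting was tested on 400 simulated features from 16 to 4096 in intensity, 20 of them raised and 20 lowered 4-fold. It found all of them on the log2(intensity + 1) scale, but 16 of the 20 lowered ones with a pseudocount of 16, and 18 raised and 16 lowered ones with quantile normalization. A brighter simulation of 2000 features, again with 20 raised and 20 lowered, was added after these misses. It found all with that pseudocount and 19 raised and 18 lowered ones with quantile normalization. Quantile normalization also made false calls. In the first simulation it called 17 features lower, of which 16 had been lowered. In the brighter one it called 20 higher, of which 19 had been raised, and 19 lower, of which 18 had been lowered. Neither simulation reached down to the intensities of the 9 miRNAs, so both check the code and not the recovery of changes at their level. The number of arrays limits the precision. Software was numpy 2.4.6 and pandas 2.3.3 under Python 3.11.15, statsmodels 0.14.6 for loess, and matplotlib 3.10.9 for plots.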

Additional observations from a re-analysis of the deposited data

How the results depend on the processing

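No paired analysis was possible because there is 1 array for each genotype. For the same reason none could be omitted in turn. miR-377-3p fell short of 2-fold with loess centring, at -0.95, and with a pseudocount of 16, at -0.21. The number of members at least 2-fold lower was then 0, as it was at the 4-fold threshold, and it was 1 at 1.5-fold and under the other 4 scalings or pseudocounts. It was not recomputed with a common lowest value. With no pseudocount, with median or 75th percentile centring and with quantile normalization, miR-377-3p kept its 2-fold lower value, between -1.58 and -1.02. miR-134-5p ranged from -0.50 to -0.08, within 2-fold throughout. No member (0) was 2-fold higher under any of these settings. A pseudocount cannot turn a sign and brings dim features nearest to 0. With 1.45 as the lowest value counted on both arrays, the members with a liver-null value went from 2 to 1, without miR-377-3p, and those with a floxed control value stayed at 4. Over all shared features, the number at least 2-fold lower was 14, 24 with no pseudocount and 7 with a pseudocount of 16, and the number at least 2-fold higher was 17, against 2 with a pseudocount of 16, 9 with median centring and 10 with loess. The 4 members with a value lie below the median of each array that gave one, and signal over background is unknown.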
